A study of Homo sapiens with 6 samples.

Results

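The insulin-like growth factor (IGF) axis was examined through 10 genes, IGFBP1 to IGFBP7, IGF1, IGFALS and IGF2R, out of 16720 named rows of a gene count table. The genes were chosen by name as a family, with their measured differences between RFX6 knockout and control libraries already known. Their difference in this comparison is therefore given as a description, with no test. All 10 had a row in the table. The libraries came from Hep3B, a human hepatocellular carcinoma (HCC) cell line. The control group, sgControl, held 3 libraries with the genotype label WT, and the other group, sgRFX6, held 3 libraries with the label RFX6 knockout, RFX6 being a winged-helix transcription factor. No treatment, dose or time distinguished the groups. All knockout columns carry the name of 1 guide, sg3, of the 3 guides against RFX6 that the study's methods list. The methods describe infection of Hep3B cells with 2 guides. They also describe delivery by a lentiviral Cas9 vector, puromycin selection and the picking of clones grown from single cells. How many clones entered the libraries is not given in the sources used here, so a difference between the groups and a difference between clones cannot be told apart. The labels do not say that the libraries of a group were separate cultures, and p-values measure only the spread between these libraries, which may be technical.

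IGF1 and IGF2 are secreted ligands that signal through IGF1R and the insulin receptor. The 6 high-affinity binding proteins, IGFBP1 to IGFBP6, hold most extracellular IGF and control its access to the receptors, whereas IGFBP7 binds IGFs weakly. The acid-labile subunit, encoded by IGFALS, completes a circulating ternary complex with IGF and IGFBP3 or IGFBP5, and IGF2R carries mannose 6-phosphate-tagged enzymes to lysosomes and clears IGF2. The liver is the main source of circulating IGF1, acid-labile subunit and IGFBP1.

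The libraries held between 16730386 and 25070793 counts, so that 3 counts corresponded to between 0.121 and 0.188 CPM, that is, counts divided by the library size and expressed on a common scale. Levels are given in CPM after scaling by the trimmed mean of M-values (TMM), and intervals cover counting error only. The targeted gene RFX6 had 117, 144 and 170 counts in sgControl replicates 1, 2 and 3 against 69, 59 and 77 in sgRFX6, a level of 6.27 ± 0.931 CPM against 3.54 ± 0.146 CPM (SD, n = 3 each). Its transcript was thus present in all libraries, and the groups did not overlap. Its log2 fold change was -0.82 (SE 0.26), with an adjusted p of 0.142 in edgeR's quasi-likelihood test and a two-sided exact permutation p of 0.1, the smallest that 3 against 3 libraries allow. All 10 hepatocyte and hepatoma markers listed were above 3 counts in every library, with summed levels of 442 to 491 CPM in sgControl and 356 to 420 CPM in sgRFX6. The sums did not overlap. Over all tested genes 11.2% were lower and 12% higher in sgRFX6 without overlap, and of the 10 markers 2 were lower and 2 higher. Among them APOB, an apolipoprotein, had 1586, 1495 and 1454 counts against 389, 253 and 1015, and AFP, the fetal serum protein, had 48, 39 and 51 against 201, 273 and 353. The part of these differences in the results below was not tested.

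In each group 1 library stood apart. The chi-square per degree of freedom between sgControl replicates was 16.2 for replicates 1 and 3, and 85.4 and 68.7 for pairs with replicate 2. Between sgRFX6 replicates it was 17.9 for replicates 1 and 2, and 94.3 and 117 for pairs with replicate 3. Without sgControl replicate 2 the log2 fold change was 1.95 for IGFBP1, 2.84 for IGFBP3, -0.01 for IGFBP4, 0.69 for IGFBP6 and -0.03 for IGF2R. Without sgRFX6 replicate 3 it was 2.09, 2.73, -0.05, 0.87 and 0.10 for these genes in turn. IGFBP1, IGFBP3 and IGFBP6 thus stayed higher in sgRFX6 when either library was left out in turn, whereas the value of IGFBP4 came near 0.

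IGFBP1 and IGFBP3 were several-fold higher in sgRFX6, IGFBP5 was nearly absent there, and IGFBP2 and IGFBP7 were low in sgControl and lower still in sgRFX6. IGFBP4 and IGF2R, the most abundant members, had overlapping levels in the groups, and IGF1 was not detected beyond a single count. A gene was tested where its counts passed a filter on low values, which 12839 genes and 7 of the 10 members did. IGFBP2, IGFBP7 and IGF1 did not pass. IGFBP5 passed through sgControl alone, since none of its sgRFX6 libraries reached 10 counts. Over all tested genes 3.74% were called at an adjusted p of 0.05, 1.92% higher and 1.81% lower. No call is given for the members. The groups did not overlap for 4 of the 7, 3 above and 1 below sgControl, where over all tested genes 23.1% did not overlap, 12% above and 11.2% below. Nothing is read from these counts, because the members were chosen with the contrast known. The median log2 fold change of the 7 was -0.01, beside 0.02 over all tested genes.

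**Figure D1:**
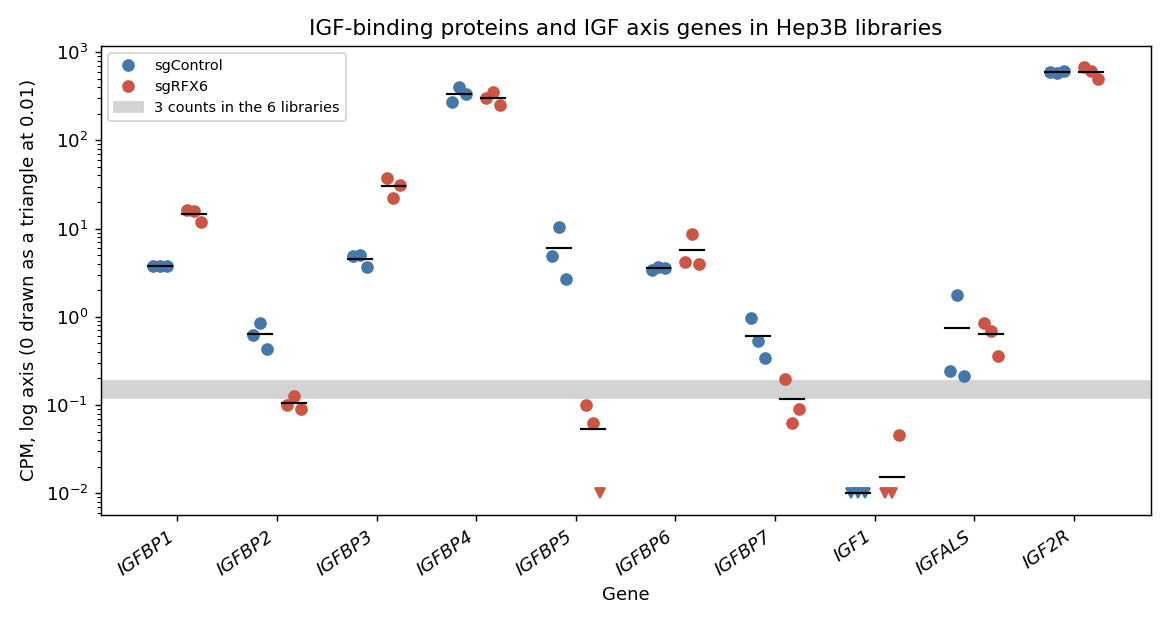
Level of each member in CPM (log axis) in the 3 sgControl (blue) and 3 sgRFX6 (red) libraries; bars are group means, the grey band is the level of 3 counts, and triangles are libraries with 0 counts. IGFBP1 and IGFBP3 lie higher in sgRFX6, IGFBP2, IGFBP5 and IGFBP7 lie lower and near the band, and IGFBP4 and IGF2R overlap.

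Among the binding proteins, IGFBP1 is a secreted hepatic protein whose gene is repressed by insulin. It lies at chr7:45888357-45893668 on the plus strand of GRCh38 (GENCODE 29). IGFBP1 had 78, 93 and 88 counts in the sgControl libraries against 324, 254 and 260 in the sgRFX6 libraries. Its level was 3.76, 3.77 and 3.80 CPM in sgControl and 16.1, 16.0 and 11.8 CPM in sgRFX6. The sgControl libraries were nearly equal, all sgRFX6 libraries were above them, and replicate 3 was the lowest of these. The mean went from 3.77 ± 0.0214 to 14.6 ± 2.43 CPM (SD, n = 3 each), a log2 fold change of 1.95 (SE 0.25).

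IGFBP3, the main carrier of IGFs in serum, lies 18.6 kb from IGFBP1 at chr7:45912245-45921874 on the minus strand. IGFBP3 had 101, 125 and 84 counts in sgControl against 759, 355 and 685 in sgRFX6. Its level was 4.86, 5.06 and 3.62 CPM in sgControl and 37.7, 22.3 and 31.1 CPM in sgRFX6. The lowest sgRFX6 library, replicate 2, was still above every sgControl library. The mean went from 4.52 ± 0.779 to 30.4 ± 7.72 CPM (SD, n = 3 each), and the log2 fold change was 2.75 (SE 0.28). The ratio of IGFBP3 to IGFBP1 counts was 1.29, 1.34 and 0.955 in sgControl and 2.34, 1.40 and 2.63 in sgRFX6. It was above the sgControl range in all sgRFX6 libraries, only slightly so in replicate 2.

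The 50 tested genes nearest to IGFBP1 and IGFBP3 spanned 19.3 Mb and had a median log2 fold change of 0.48, against 0.02 over all tested genes. Of these 50 genes, 48 had a positive log2 fold change, against 13 (IGFBP2) to 42 (IGFALS) of the 50 nearest to each of the other members. Leaving the members aside, CAMK2B, OGDH, UPP1 and DDC were called higher by edgeR within 5000 kb of the pair, and no gene was called lower. Over all tested genes 1.92% were called higher and 1.81% lower. The 50 genes nearest to each member include the other member of the pair, so their median and their positive values are not independent of the members. After subtraction of that median, the log2 fold change was 1.47 for IGFBP1 and 2.27 for IGFBP3. Both members remained above the median of their neighbourhood by these amounts. Without that subtraction, CAMK2B was at 2.73 (SE 0.50), above IGFBP1 and close to IGFBP3. Every other gene within 5000 kb, the members aside, lay below both. The medians around the other members lay between -0.14 (IGFBP2) and 0.25 (IGF1 and IGFALS). The part of the neighbourhood in the levels of IGFBP1 and IGFBP3 was not tested.

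**Figure D2:**
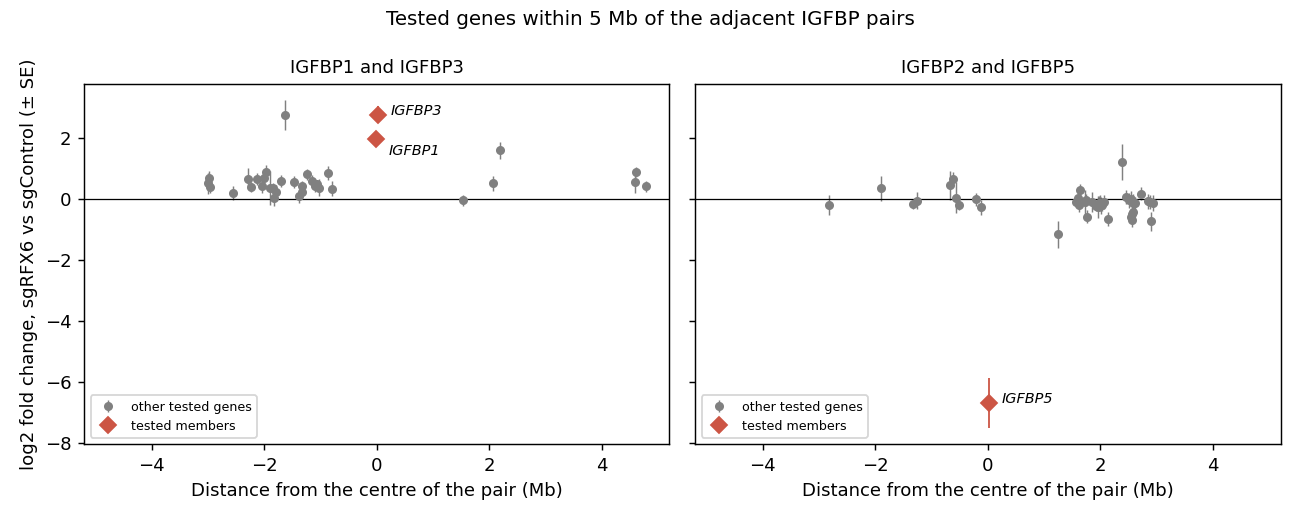
Log2 fold change (± SE) of sgRFX6 against sgControl for tested genes within 5000 kb of the centre of the IGFBP1 and IGFBP3 pair (left) and of the IGFBP2 and IGFBP5 pair (right), by distance in Mb. The tested members are red diamonds; around IGFBP1 and IGFBP3 most other genes lie above 0, and IGFBP2 is not drawn because it did not pass the filter on low counts.

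IGFBP5 and IGFBP2 form another adjacent pair on chromosome 2. IGFBP5, a binding protein that also attaches to extracellular matrix, lies at chr2:216672105-216695525 on the minus strand. IGFBP5 had 101, 257 and 62 counts in sgControl against 2, 1 and 0 in sgRFX6. In CPM this was 4.86, 10.4 and 2.68 against 0.0993, 0.0628 and 0. All sgRFX6 libraries were below the level of 3 counts and all sgControl libraries were far above it. The sgControl libraries themselves ranged widely, with replicate 2 the highest. The mean was 5.98 ± 3.98 CPM in sgControl against 0.0540 ± 0.0502 CPM in sgRFX6 (SD, n = 3 each). Pooled over libraries, 420 counts against 3 gave an sgControl to sgRFX6 ratio of 118, with an exact 95% counting interval of 40.3 to 577. The fitted log2 fold change of -6.69 (SE 0.82) depends on the prior count, and it was -7.52 without sgRFX6 replicate 1, which held 2 of the 3 counts, -6.02 without sgControl replicate 2 and -6.08 without sgRFX6 replicate 3. IGFBP5 shares 298 exonic bases with the antisense gene AC007563.2, and no strand setting of the counting is given in the sources used here.

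IGFBP2, a binding protein abundant in fetal tissue, lies 7.67 kb from IGFBP5 at chr2:216632828-216664436 on the plus strand. IGFBP2 had 13, 21 and 10 counts in sgControl against 2 in each sgRFX6 library. The levels were 0.626, 0.850 and 0.432 CPM against 0.0993, 0.126 and 0.0908 CPM. The sgRFX6 libraries were at the limit of detection and below all sgControl libraries. The pooled ratio of sgControl to sgRFX6 was 6.21 (95% counting interval 2.63 to 17.8), and no fit was made. The 50 tested genes nearest to IGFBP5 had a median log2 fold change of -0.12, against -6.69 for IGFBP5 itself. IGFBP2 is not among these 50, because it did not pass the filter on low counts. The part of the neighbourhood in the levels of IGFBP5 and IGFBP2 was not tested.

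Some of the fibroblast and stellate cell markers were lower in sgRFX6 as IGFBP5 was. Of the 10 listed, 4 were above 3 counts in every library. For 6 of the 10 the highest sgRFX6 library lay below the lowest sgControl library, and for 0 the reverse held, where over all tested genes 11.2% lay below and 12% above without overlap. The other 4, LUM included, overlapped. Unlike the tested genes, the 10 markers were not limited by the filter on low counts, and some had few counts. Their summed level was 54.0 to 63.0 CPM in sgControl and 21.8 to 57.3 CPM in sgRFX6. None of the 10 was at or below 3 counts in all libraries, and LUM, the most abundant, had 388 to 616 counts in sgControl against 327 to 1205 in sgRFX6. COL3A1, a fibrillar collagen, had 478, 680 and 615 counts in sgControl against 2, 0 and 0 in sgRFX6. PDGFRA, a receptor of mesenchymal cells, had 36, 33 and 69 counts against 2, 3 and 0. The libraries are labelled as a tumour cell line. Puromycin selection and growth from single cells are described for cells infected with guides against RFX6. Whether the sgControl cells were also cloned is not stated in the sources used here. In bulk RNA, fewer cells of a type and less RNA per cell cannot be told apart, and the part of these genes' source in the IGFBP5 result was not tested. Endothelial markers summed to 11.8 to 13.8 CPM in sgControl and 13.4 to 19.9 CPM in sgRFX6, with 1 of the 5 in the table above 3 counts in every library and KDR at or below 3 counts throughout. Leukocyte markers summed to 74.4 to 160 CPM and 63.6 to 102 CPM, with 4 of 5 above 3 counts in every library, most of it CD68, and CD3E at or below 3 counts.

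IGFBP4, a binding protein that inhibits IGF action and is cleaved by the protease PAPPA, was the most abundant binding protein. It lies at chr17:40443461-40457731 on the plus strand. IGFBP4 had 5635, 10031 and 7713 counts in sgControl against 6012, 5579 and 5572 in sgRFX6. Its level was 271, 406 and 333 CPM in sgControl and 298, 350.5 and 253 CPM in sgRFX6. The groups overlapped, with the highest library in sgControl and the lowest in sgRFX6. The means were 337 ± 67.4 and 301 ± 48.8 CPM (SD, n = 3 each), and the log2 fold change was -0.16 (SE 0.21).

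IGFBP6, which prefers IGF2 over IGF1, lies at chr12:53097436-53102345 on the plus strand. IGFBP6 had 71, 91 and 82 counts in sgControl against 84, 140 and 88 in sgRFX6. Its level was 3.42, 3.68 and 3.54 CPM in sgControl and 4.17, 8.79 and 3.995 CPM in sgRFX6. All sgRFX6 libraries were above sgControl, replicates 1 and 3 only narrowly and replicate 2 clearly. The log2 fold change was 0.67 (SE 0.36), and it was 0.20 without sgRFX6 replicate 2.

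IGFBP7, the weak IGF binder, lies at chr4:57030773-57110385 on the minus strand. IGFBP7 had 20, 13 and 8 counts in sgControl against 4, 1 and 2 in sgRFX6. The levels were 0.963, 0.526 and 0.345 CPM against 0.199, 0.0628 and 0.0908 CPM. All sgRFX6 libraries lay below all sgControl libraries, at or near the level of 3 counts. The pooled ratio of sgControl to sgRFX6 was 4.96 (95% counting interval 2.20 to 13.1). IGFBP7 shares exonic bases with POLR2B (270) and IGFBP7-AS1 (94) on the opposite strand.

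The windows of 250 bases before the RefSeq start sites (GRCh38.p14) were searched for short motifs on both strands, and those of the binding proteins whose levels differed most or were highest are printed below. An entry was found for 8 of the 10 members and none for IGFBP1 and IGFBP7. The IGFBP3 and IGFBP2 windows lie inside the GENCODE gene spans given above, not before them. Of the 3 entries of IGFBP2, the one nearest the start of its longest coding transcript was used. Capitals mark the letters GGGCGG of a GC box, the letters TATAAA of a TATA box, its variant form with the letters TATATA, and the letters GTTGCC of a half-site bound by RFX factors, or the reverse complement of any of these. Each sequence runs 5′ to 3′ on the strand of its gene.
IGFBP3, chr7:45921273-45921522, minus strand: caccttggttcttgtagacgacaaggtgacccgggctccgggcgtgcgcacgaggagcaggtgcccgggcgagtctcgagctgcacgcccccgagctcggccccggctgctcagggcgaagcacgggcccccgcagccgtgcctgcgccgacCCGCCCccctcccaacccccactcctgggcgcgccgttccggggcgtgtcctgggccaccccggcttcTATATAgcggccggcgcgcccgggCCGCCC
IGFBP5, chr2:216695550-216695799, minus strand: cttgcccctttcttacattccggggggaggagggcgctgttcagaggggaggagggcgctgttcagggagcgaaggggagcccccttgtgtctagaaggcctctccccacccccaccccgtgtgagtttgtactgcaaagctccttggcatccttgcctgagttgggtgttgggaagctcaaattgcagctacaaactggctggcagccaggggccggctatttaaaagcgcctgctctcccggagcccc
IGFBP2, chr2:216633170-216633419, plus strand: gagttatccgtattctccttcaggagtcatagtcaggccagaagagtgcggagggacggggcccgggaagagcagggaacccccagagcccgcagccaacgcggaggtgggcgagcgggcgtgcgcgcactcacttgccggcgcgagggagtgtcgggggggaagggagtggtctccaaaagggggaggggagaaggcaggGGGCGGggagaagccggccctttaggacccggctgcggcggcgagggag
IGFBP4, chr17:40443200-40443449, plus strand: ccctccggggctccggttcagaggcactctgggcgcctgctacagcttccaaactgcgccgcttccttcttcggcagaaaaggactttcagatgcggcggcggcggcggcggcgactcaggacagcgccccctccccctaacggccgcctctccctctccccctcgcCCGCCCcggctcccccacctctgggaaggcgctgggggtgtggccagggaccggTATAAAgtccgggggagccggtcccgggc

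The IGFBP3 window held 2 GC boxes and 1 variant TATA box, with a GC content of 76.0%. The IGFBP4 window held 1 GC box and 1 TATA box, and the IGFBP2 window 1 GC box. The IGFBP5 window held none of the letters searched and was the least GC-rich of these, at 61.2% against 69.2% for IGFBP2 and 71.6% for IGFBP4. The RFX half-site was found in 0 of the 8 windows. Over 35116 windows of the same length, 10.2% held the RFX half-site letters, 10.7% the TATA box, 3.73% its variant form and 42.6% the GC box. A match is a description of letters and not of a bound site, and its absence says only that these letters are not in this window.

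Levels of different genes were compared as CPM per kb of annotated exon. In sgControl, IGFBP4 was highest at 153 ± 30.7, followed by IGF2R at 33.5 ± 0.648, IGFBP6 at 2.64 ± 0.0984 and IGFBP1 at 2.28 ± 0.0130 CPM per kb (SD, n = 3). Below them came IGFBP3 at 0.988 ± 0.170 and IGFBP5 at 0.929 ± 0.618, then IGFBP7 at 0.317 ± 0.165, IGFALS at 0.316 ± 0.379 and IGFBP2 at 0.133 ± 0.0439, with IGF1 at 0. The first 4 members were separated from the next in the order, whereas each neighbouring pair from IGFBP3 down to IGFBP2 overlapped. In sgRFX6 the order became IGFBP4 at 137 ± 22.2, IGF2R at 33.1 ± 5.11, IGFBP1 at 8.84 ± 1.47, IGFBP3 at 6.64 ± 1.69 and IGFBP6 at 4.20 ± 2.02 CPM per kb. IGFBP1 overlapped IGFBP3, and IGFBP3 overlapped IGFBP6.

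As a share of the summed IGFBP1 to IGFBP7 level per kb, IGFBP4 made up 94.4%, 95.8% and 95.9% in sgControl and 86.5%, 88.3% and 87.1% in sgRFX6. IGFBP4 was thus dominant in every library, but its share was lower in all sgRFX6 libraries. IGFBP1 made up 1.46% ± 0.279 in sgControl and 5.65% ± 0.476 in sgRFX6, and IGFBP3 0.631% ± 0.163 and 4.37% ± 1.44 (SD, n = 3 each). IGFBP6 went from 1.68% ± 0.263 to 2.62% ± 0.882, and the lowest sgRFX6 library (1.97%) was just above the highest sgControl library (1.94%). IGFBP5 made up 0.560% ± 0.288 in sgControl and 0.00508% ± 0.00492 in sgRFX6. The sum itself was 131, 193 and 158 CPM per kb in sgControl and 157, 180 and 132 in sgRFX6, and the groups overlapped.

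**Figure D3:**
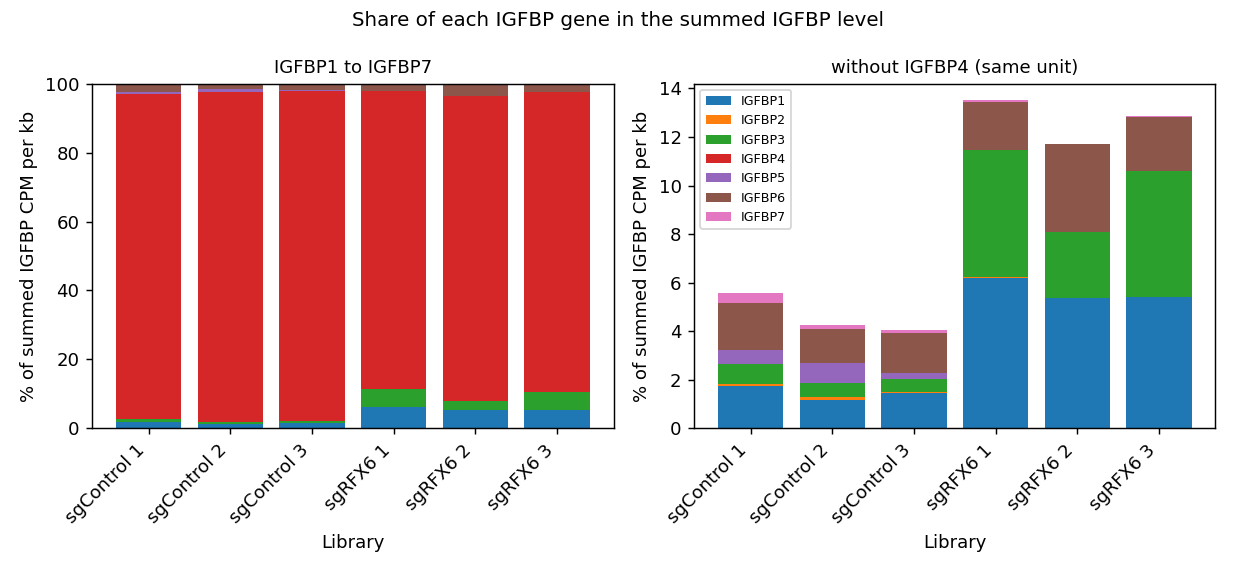
Share of each binding protein gene in the summed IGFBP1 to IGFBP7 level (percent of CPM per kb) in each library, with IGFBP4 (left) and without it, on the same unit (right). IGFBP4 takes 94.4% to 95.9% in sgControl and 86.5% to 88.3% in sgRFX6, and the difference is made up mostly by IGFBP1 (blue) and IGFBP3 (green).

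IGF1, the endocrine ligand made by normal liver, was not detected in sgControl, with 0 counts in each library, and had 0, 0 and 1 counts in sgRFX6. Both groups were at or below 3 counts and no fold is given. IGF1 lies at chr12:102395874-102481744 on the minus strand and shares 6693 exonic bases with HELLPAR on the opposite strand.

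IGFALS lies at chr16:1790413-1794971 on the minus strand and shares 64 exonic bases with SPSB3 on the same strand. IGFALS had 5, 44 and 5 counts in sgControl against 17, 11 and 8 in sgRFX6. Its level was 0.241, 1.78 and 0.216 CPM in sgControl and 0.844, 0.691 and 0.363 CPM in sgRFX6. A single library, sgControl replicate 2, was above all others, and the remaining sgControl libraries were below all sgRFX6 libraries. The log2 fold change was -0.27 (SE 0.80), and it was 1.43 without sgControl replicate 2. The sign was not stable, since 11 of 16 alternatives gave a negative value, and it was also positive without sgRFX6 replicate 3 (0.02), with a replicate block (0.21), with GC offsets and the block (0.13) and with limma-voom (1.57).

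IGF2R, the receptor that removes IGF2, lies at chr6:159969099-160113507 on the plus strand. IGF2R had 12508, 14428 and 14031 counts in sgControl against 13594, 9632 and 10879 in sgRFX6. Its level was 602, 584 and 605 CPM in sgControl and 675, 605 and 494 CPM in sgRFX6. The sgControl libraries lay close together inside the wider range of sgRFX6. The means were 597 ± 11.6 and 591 ± 91.3 CPM (SD, n = 3 each), and the log2 fold change was -0.01 (SE 0.18), with either sign under the alternatives tried (-0.12 to 0.11). The ratio of IGF2R to IGF1R level per kb was 3.36, 4.35 and 3.32 in sgControl and 4.63, 4.45 and 3.85 in sgRFX6, so that IGF2R exceeded IGF1R in all libraries and the groups overlapped.

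Genes of the pathway outside the family were taken from a list of 87, of which 83 were in the table and 72 were tested. SOCS3 was called higher and SOCS2 lower in sgRFX6, and no other gene of the list passed the test. This was 2.78% of the 72, beside 3.74% over all genes. Of the 72, 5 had an unadjusted p below 0.05 in edgeR, where 2000 of all 12839 tested genes did. DESeq2 called 2 of the 72 and limma-voom with sample quality weights called 22, beside 895 and 3998 over all tested genes. The median log2 fold change of the list was -0.03.

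Among ligands and receptors, 0 of 3 tested passed in edgeR, 0 at an unadjusted p below 0.05, 0 in DESeq2 and 2 (IGF1R and INSR) in limma-voom. IGF2, the ligand expressed in fetal liver and many tumours, had 58, 84 and 46 counts in sgControl against 45, 105 and 93 in sgRFX6. Its reads may be split with those of INS-IGF2, a readthrough transcript over the same exons. The groups overlapped and the log2 fold change was 0.67 (SE 0.42; edgeR adjusted p = 0.523). It was 0.25 without sgRFX6 replicate 2 and 0.98 without sgRFX6 replicate 1. IGF1R, the signalling receptor, was at 129 ± 21.0 and 107 ± 6.85 CPM (SD, n = 3 each), also overlapping, with a log2 fold change of -0.28 (SE 0.18; edgeR adjusted p = 0.527). INSR, the insulin receptor, was at 49.0 ± 0.763 and 61.0 ± 4.94 CPM, and all sgRFX6 libraries lay above all sgControl libraries. Its log2 fold change of 0.32 (SE 0.16) did not pass the test (edgeR adjusted p = 0.415).

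SOCS2 and SOCS3, feedback inhibitors of cytokine and growth hormone signalling, belonged to a growth hormone group in which 2 of 7 (28.6%) passed in edgeR, beside 3.74% over all genes, 2 in DESeq2 and 4 in limma-voom. The list was drawn up with earlier results of these data known. SOCS3 had 18, 43 and 44 counts in sgControl against 135, 125 and 117 in sgRFX6. It rose from 1.50 ± 0.556 to 6.62 ± 1.27 CPM (SD, n = 3 each), a log2 fold change of 2.13 (SE 0.36; edgeR adjusted p = 0.0141). SOCS2, a target of growth hormone signalling, had 154, 314 and 126 counts in sgControl against 47, 36 and 33 in sgRFX6. It fell from 8.52 ± 3.76 to 2.03 ± 0.463 CPM, a log2 fold change of -2.07 (SE 0.38; edgeR adjusted p = 0.0209). Neither gene overlapped between groups. Without sgRFX6 replicate 1 the adjusted p was 0.0588 for SOCS3 and 0.0716 for SOCS2, and without sgRFX6 replicate 2 it was 0.0571 for SOCS2. Over all alternatives it ranged from 7.41e-06 to 0.0588 for SOCS3 and from 3.52e-05 to 0.0716 for SOCS2.

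In the remaining groups no gene passed in edgeR or DESeq2. Among 36 receptor signalling genes the log2 fold change was above 0 in 18 and below 0 in 18, 2 had an unadjusted p below 0.05 and limma-voom called 10. The largest difference was that of the kinase gene GSK3B, 0.61 (SE 0.21; edgeR adjusted p = 0.174). GSK3B passed with GC offsets (adjusted p = 0.0234) and with limma-voom (adjusted p = 0.0167), but not with GC offsets and the replicate block (adjusted p = 0.0837), and its adjusted p was at most 0.366 over the alternatives. Of 4 IGFBP proteases and stanniocalcins, 1 had an unadjusted p below 0.05 and limma-voom called 2, and ADAM28 differed most at 0.79 (SE 0.41; edgeR adjusted p = 0.416). It was 1.18 without sgControl replicate 2 and 0.37 without sgRFX6 replicate 3. Of 7 proteins with an IGFBP-like domain, 0 had an unadjusted p below 0.05 and limma-voom called 2. The protease gene HTRA3 differed most at -0.93 (SE 0.71; edgeR adjusted p = 0.611) and was at 1.03 in limma-voom, and over the libraries left out in turn it was -1.44 (without sgRFX6 replicate 1) to -0.32 (without sgControl replicate 2).

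Of 6 genes for mannose 6-phosphate sorting and IGFBP-binding receptors, 0 had an unadjusted p below 0.05 in edgeR and limma-voom called 2, with LRP1, an endocytic receptor, at -0.66 (SE 0.30; edgeR adjusted p = 0.343). LRP1 was at -0.27 without sgControl replicate 2 and at -0.12 in limma-voom. Of 3 IGF2 mRNA-binding proteins and of 6 FOXO factors and insulin-repressed genes, 0 had an unadjusted p below 0.05 and limma-voom called 0. IGF2BP2 was at -0.25 (SE 0.26; edgeR adjusted p = 0.746), at -0.07 without sgControl replicate 2 and at -0.05 without sgRFX6 replicate 2. FOXO4 was at -0.65 (SE 0.41; edgeR adjusted p = 0.517) and at 0.13 in limma-voom, and it was -0.12 without sgControl replicate 2.

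**Figure D4:**
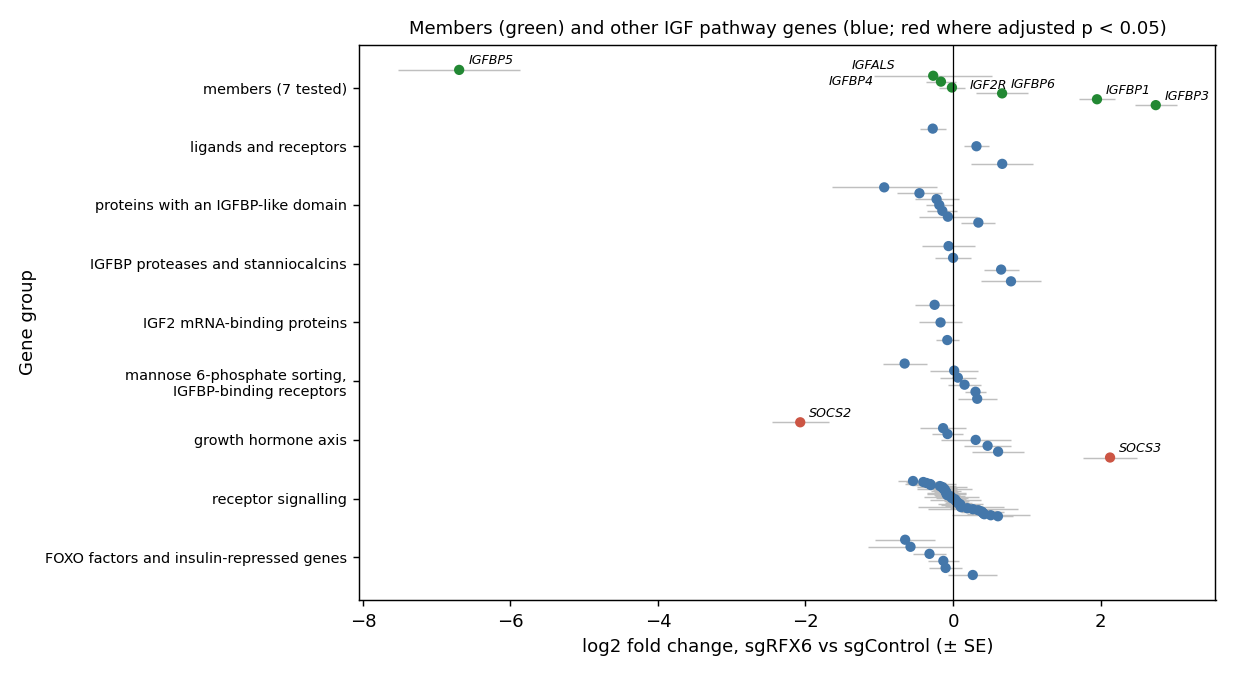
Log2 fold change (± SE) of sgRFX6 against sgControl for the 7 tested members (green, described without a test) and for 72 other genes of the pathway by group (blue, or red where the adjusted p was below 0.05). SOCS3 at 2.13 and SOCS2 at -2.07 are the red points, and IGFBP5, IGFBP1 and IGFBP3 lie outside the range of most others.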

How the data were processed

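RNA of 6 Hep3B libraries, 3 sgControl and 3 sgRFX6, was sequenced on an Illumina instrument, and the authors deposited 1 table of raw counts per gene. The builds GRCh38 and hg38 are named in the submitters' processing notes, and the aligner, counter, annotation and strand setting are not given in the sources used here. The control columns are named cas and were taken as sgControl, the only control group. A row without a gene name, at most 9.17e-05% of a library, was left out. Replicates differed by more than sampling noise (chi-square per degree of freedom 16.2 to 117).

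The test was run in edgeR 4.0.16 (R 4.3.3) with filterByExpr (minimum count 10, minimum total 15), TMM scaling, a quasi-likelihood fit over all 6 libraries without covariates, and Benjamini-Hochberg adjustment over 12839 genes at 0.05. Scripts were tested on simulated data. Counts of 3 or fewer in every library of a group were taken as the floor, and ratios of pooled counts have exact 95% intervals. Positions and exon lengths came from GENCODE 29, and promoters from RefSeq. The members and lists were chosen with earlier results of these data known. Named genes were the members, RFX6, IGF2, IGF1R, INSR, list genes that passed, and the largest difference in each list group. APOB, AFP, COL3A1, PDGFRA, LUM, KDR, CD68, CD3E, SHC1, CAMK2B, OGDH, UPP1 and DDC were named after their values were seen. Alternatives were other scalings, filters, GC offsets, a replicate block, DESeq2 1.42.0, limma 3.58.1 and leaving out each library.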

Additional observations from a re-analysis of the deposited data

How the results depend on the processing

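Over all genes, edgeR called 480, against 895 with DESeq2, 3998 with limma-voom and sample quality weights, 1351 with GC offsets (93.5% of tested genes had a GC content), 792 with GC offsets and the replicate block, and 212 to 718 when 1 library was left out. The calls of the pathway list, 2 in the main analysis, were 22 with limma-voom, 4 with GC offsets (GSK3B and SHC1 gained) and 0 to 3 when 1 library was left out. They were 0 without sgRFX6 replicate 1, where edgeR gave 6 genes at an unadjusted p below 0.05, and 1 (SOCS3) without sgRFX6 replicate 2. RFX6 passed at -0.96 with limma-voom (adjusted p = 0.00274) and at -0.85 with GC offsets (adjusted p = 0.0497), and its log2 fold change was -0.89 to -0.67 when 1 library was left out, with adjusted p from 0.00274 to 0.505 over the alternatives. When 1 sgControl library was left out, 6 to 8 of the 10 members kept their rank by level per kb. The causes were not tested.

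Of 118 alternative values of the members, 110 moved by less than the spread between replicates and 8 by more. Beside those given with the genes above, IGFBP3 was 3.08, IGFBP5 -4.93 and IGFALS 1.57 with limma-voom. IGFBP1, IGFBP3 and IGFBP6 were positive and IGFBP4 and IGFBP5 negative in each of their 17 alternatives. With a replicate block 648 genes were called, 2 of them on the pathway list. IGFALS was 0.21 in that fit. The replicate numbers gave no sign of pairing, with correlations between same-numbered libraries of -0.41, 0.17 and -0.09. Between differently numbered libraries they ran from -0.45 to 0.57, the highest for sgControl replicate 1 and sgRFX6 replicate 3. Pairing in another order was not tested. Depth limits IGFBP2, IGFBP7 and IGF1, for which no fit was made.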
